A study of Homo sapiens with 2 samples.

Results

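The transcripts of 7 genes of cellular iron handling were profiled by RNA bisulfite sequencing: FTH1 and FTL, which encode the heavy and light subunits of ferritin, TFRC, the transferrin receptor, ACO1 and IREB2, the iron regulatory proteins IRP1 and IRP2, and PCBP1 and PCBP2, poly(C)-binding proteins. They are 7 of the 12015 genes that held at least 1 cytosine kept in either library. The genes were chosen by name, with earlier results for FTH1 in view, and their cytosines were selected on a measured value, a coverage of at least 10 reads on exons of the gene's strand. This left 1533 of 1584002 kept cytosines in MCF10A, and in MDA-MB-468 it left 895 of 1271253. MCF10A is a non-tumorigenic epithelial line from the human breast and MDA-MB-468 is a breast cancer line. The labels name DMEM for both, whereas the study's methods give different media, DMEM/F12 with horse serum, EGF, hydrocortisone and insulin for MCF10A and RPMI with fetal bovine serum for MDA-MB-468. Each line gave 1 library of poly(A)-selected RNA treated with bisulfite at 60 degrees for 8 hours. With 1 library per line there was no replicate, so each value describes a library, and the line, its culture and its library preparation cannot be told apart.

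Bisulfite turns an unmethylated cytosine into uracil, whereas 5-methylcytosine (m5C) stays a cytosine, as does any cytosine that the reagent did not reach. The methylation ratio of a cytosine is the number of unconverted reads divided by its coverage, and it does not separate m5C from incomplete conversion. Over all kept sites the ratio was 1.99% in MCF10A against 1.81% in MDA-MB-468, and the median site had 18 reads in both. A site was called when its unconverted reads exceeded this background by a one-sided Fisher's exact test with an adjusted p under 0.05. Intervals are 95% Wilson intervals and cover counting error only, since reads made by PCR are not independent molecules and neighbouring cytosines are read on the same fragments. Of the epithelial markers, KRT5, KRT17, KRT8, KRT18 and EGFR were covered in both lines, EPCAM and CDH1 in MDA-MB-468 alone and KRT14 in neither. Among the markers of other cell types, PTPRC and COL1A2 had no kept site, and COL1A1 had 267 sites in MDA-MB-468 at a median coverage of 14.

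Cells keep free iron low through an RNA switch. When iron is scarce, IRP1 and IRP2 bind a short hairpin, the iron-responsive element, which carries a bulged cytosine and a loop that begins with CAGTG in DNA letters. Bound in the 5'UTR of the ferritin mRNAs the proteins block translation, and bound in the 3'UTR of TFRC mRNA they protect it from decay, so that iron storage falls and iron uptake rises together. PCBP1 and PCBP2 act as iron chaperones that load ferritin, and they also bind C-rich RNA.

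The elements were located by their loop, the bulged C and a stem of 5 pairs, with 6 nt on each side. They are shown because the profile turns on whether their cytosines were read at all, and capitals mark the bulged C and the loop. All sequences are from GRCh37, 5′ to 3′ along the mRNA. The FTH1 element lies in the 5'UTR on the minus strand at chr11:61735046-61735074, the FTL element in the 5'UTR on the plus strand at chr19:49468592-49468620, and the TFRC element shown, 1 of 4 found, in the 3'UTR on the minus strand at chr3:195777446-195777474.
FTH1 element: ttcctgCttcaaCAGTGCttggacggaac
FTL element: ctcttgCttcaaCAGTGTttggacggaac
TFRC element: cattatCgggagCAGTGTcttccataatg

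The stretches below hold the called cytosines that the results turn on, and capitals mark the cytosines called in both lines for FTH1 and FTL and in MCF10A for PCBP1 and TFRC. The FTH1 stretch is the 3' part of a run in the 5'UTR (minus strand, chr11:61734915-61734938). The FTL stretch surrounds a single called cytosine of the 3'UTR (plus strand, chr19:49470010-49470038). The PCBP1 stretch lies in the 5'UTR (plus strand, chr2:70314664-70314686) and the TFRC stretch in the coding sequence (minus strand, chr3:195791254-195791282).
FTH1 stretch: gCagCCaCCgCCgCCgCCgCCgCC
FTL stretch: cgacttctgaagggCcccttgcaaagtaa
PCBP1 stretch: gcccgccgctCCCggccccgctc
TFRC stretch: ggggCccagagagatgcatggggCCctgg

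Called cytosines of the iron genes lay almost wholly in the 5'UTRs of the ferritin mRNAs. In MCF10A 61 of the 1533 sites were called (3.98%), where 0.96% of all kept sites were. In MDA-MB-468 54 of the 895 sites were called (6.03%), where 0.84% of all kept sites were. FTH1 and FTL supplied 54 of the 61 and all 54. The other 5 genes together had 7 calls among 1161 sites in MCF10A (0.603%) and 0 among 553 in MDA-MB-468, shares that lie below those of all kept sites. Since FTH1 was known to hold called sites when the genes were chosen, these counts are a description and were not tested. Deeper sites can be called at lower ratios, and none of these shares is matched for coverage. The median coverage was 369.5 and 131.5 for FTH1 and 274 and 79.5 for FTL in MCF10A and MDA-MB-468. For the other 5 genes it was 25 and 29, beside 18 over all kept sites.

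**Figure D1:**
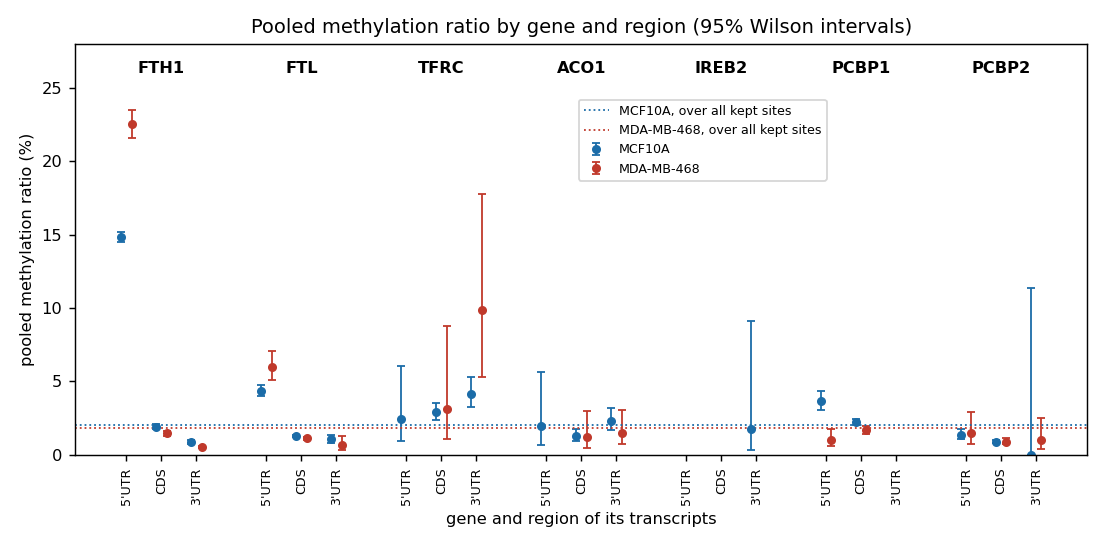
Pooled methylation ratio (vertical axis, %) of the 5'UTR, coding sequence (CDS) and 3'UTR of each gene (horizontal axis) in MCF10A (blue) and MDA-MB-468 (red), with 95% Wilson intervals and, dotted, the ratio over all kept sites of each line. The FTH1 5'UTR stands at 14.8% and 22.5% and the FTL 5'UTR at 4.35% and 5.99%, while the CDS of both ferritin genes lies below the dotted lines, and regions without a kept site have no point.

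FTH1 encodes the ferritin subunit with ferroxidase activity. Its gene lies on the minus strand at chr11:61727190-61735106, and its canonical transcript of 1203 nt has a 5'UTR of 209 nt, a CDS of 552 nt and a 3'UTR of 442 nt. MCF10A had 190 kept sites with a median coverage of 369.5, of which 32 were called. MDA-MB-468 had 158 kept sites with a median coverage of 131.5, of which 38 were called. Every FTH1 call lay in the 5'UTR. There, 32 of 97 sites were called in MCF10A (33.0%), beside 2.24% of all 5'UTR sites, and 38 of 86 in MDA-MB-468 (44.2%), beside 1.95%. These counts, like the pooled and median ratios of the region, take the 5'UTRs of all basic transcripts of the gene. They therefore include sites outside the canonical 5'UTR, none of them called. Those sites had coverages of 11 to 18 in MCF10A and 10 to 13 in MDA-MB-468.

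The rest of the FTH1 mRNA was near or below the background. In the CDS the pooled ratio was 1.91% (1.77 to 2.07) over 65 sites in MCF10A and 1.46% (1.30 to 1.63) over 54 sites in MDA-MB-468. No CDS site was called, beside 0.615% and 0.551% of all CDS sites. In the 3'UTR the pooled ratio was 0.848% (0.737 to 0.976) over 28 sites and 0.507% (0.441 to 0.583) over 18 sites, and no site was called beside 0.837% and 0.739% of all 3'UTR sites. The median coverage of these 3'UTR sites was 125 in MCF10A against 3713 in MDA-MB-468, so the low 3'UTR ratio in MDA-MB-468 rested on the deepest part of the gene.

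Within the 5'UTR all calls but 1, in MCF10A, formed a run just before the start codon. Counted from the start of the transcript, it spanned positions 145 to 192 in MCF10A (chr11:61734915-61734962), 48 nt in which all 31 covered cytosines were called. In MDA-MB-468 it ran on to the last base of the 5'UTR, position 209, with 38 of 39 cytosines called over 65 nt. Over positions 145 to 192 the pooled ratio was 25.7% (25.1 to 26.3) in MCF10A and 35.9% (34.5 to 37.4) in MDA-MB-468. Coverage there was 537 to 1047 reads in MCF10A and 131 to 177 in MDA-MB-468, and the lowest site of the MCF10A run still had 29 unconverted reads.

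The profile of the run had a pair of maxima, placed alike in both lines. At position 140, the last covered cytosine before the run, the ratio was 1.92% of 573 reads in MCF10A and, in MDA-MB-468, 4.26% of 141. It stood at 8.39% and 23.6% at position 145 and at 29.1% and 41.1% at position 152, the 5' maximum. It then fell back, to 5.03% at position 160 in MCF10A (29 of 576 reads) and to 11.1% at position 159 in MDA-MB-468 (15 of 135 reads). The 3' maximum was higher. It was 51.2% at position 179 in MCF10A (302 of 590 reads) and 73.8% at position 180 in MDA-MB-468 (107 of 145 reads). At position 192 the ratio was 11.1% and 19.8%, and at position 194 it was 2.49% of 1044 reads and 9.55% of 178 reads. The edge of the run was thus sharp in MCF10A, where none of the 8 cytosines from position 193 to the start codon was called (pooled 2.57%, 2.24 to 2.94), and less so in MDA-MB-468, where 7 of the 8 were (pooled 7.45%, 6.17 to 8.96).

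**Figure D2:**
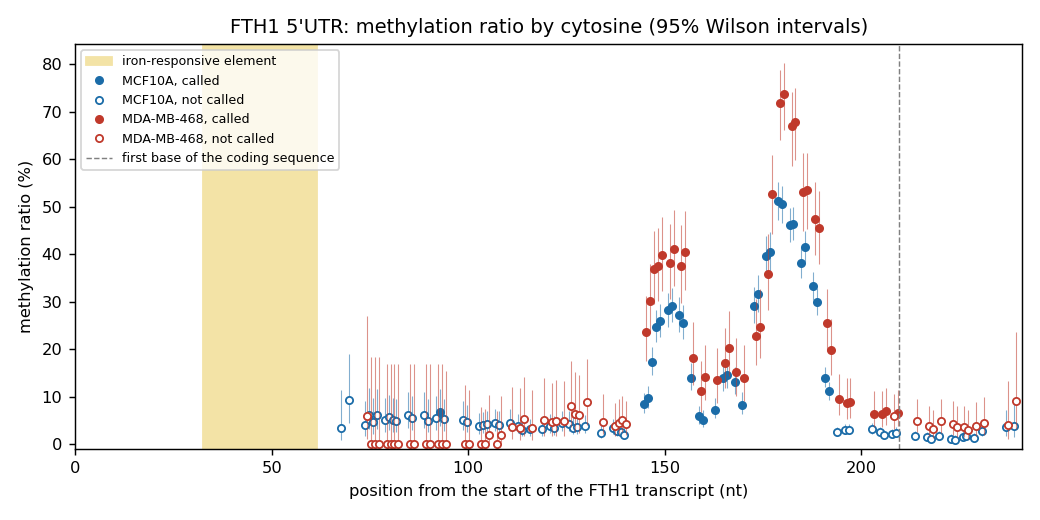
Methylation ratio (vertical axis, %) of each covered cytosine by its distance from the start of the FTH1 transcript (horizontal axis, nt) in MCF10A (blue) and MDA-MB-468 (red), with 95% Wilson intervals. Filled points were called, the shaded band is the iron-responsive element, in which no cytosine was covered, and the dashed line is the start of the coding sequence, with both lines showing their highest ratios at positions 179 and 180.

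The 3' maximum lay in a CCG repeat, printed above as the FTH1 stretch. Over positions 169 to 192 the pooled ratio was 33.0% (32.1 to 33.9) in MCF10A and 44.6% (42.5 to 46.7) in MDA-MB-468, and the 15 sites ranged from 8.30% to 51.2% and from 13.97% to 73.8%. Over positions 145 to 168, which hold the 5' maximum and the trough, it was 16.9% (16.2 to 17.7) and 27.4% (25.6 to 29.3). The deepest called sites with a ratio of at least 20% were, in MCF10A, positions 189, 188 and 186, at 30.03% of 999 reads, 33.2% of 964 and 41.5% of 891. In MDA-MB-468 they were positions 191, 189 and 188, at 25.6% of 172 reads, 45.6% of 158 and 47.5% of 158. Both lists fall in the repeat, and the MCF10A sites were those known when the gene was chosen.

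Both cytosines of the repeat unit carried the signal. Within the run the 9 cytosines followed by G and preceded by C (CCG) had a median ratio of 30.03% in MCF10A, from 14.6% to 50.5%, and of 45.6% in MDA-MB-468, from 20.3% to 73.8%. The 10 cytosines preceded by G and followed by C (GCC) had a median of 28.7%, from 8.39% to 51.2%, and of 37.9%, from 17.2% to 71.9%. The ranges of the CCG and GCC cytosines overlapped almost fully. Neither context was called throughout the canonical 5'UTR, which held 15 covered CCG and 18 covered GCC cytosines in each line, of which 9 and 10 were called in MCF10A and 10 and 11 in MDA-MB-468.

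Upstream of the run, between the iron-responsive element and position 144, the lines were similar in their pooled level, and no cytosine was called as different between them. The pooled ratio was 3.91% (3.57 to 4.28) over 41 sites in MCF10A and 3.65% (2.91 to 4.58) over 39 sites in MDA-MB-468. A single site was called there, position 93 in MCF10A (11 of 163 reads, 6.75%), and none in MDA-MB-468. In MDA-MB-468 19 of the 39 sites had no unconverted read, at coverages from 17 up, whereas every site had at least 1 in MCF10A. The upper limits of these zeros left room for the MCF10A ratios. At position 75 the limit for 0 of 17 reads was 18.4%, beside 6.20% in MCF10A. At position 107 it was 6.88% for 0 of 52 reads, beside 4.43%. Across the 39 sites covered in both lines the ratios ran against each other (Pearson -0.69, Spearman -0.75), a description of sites that share reads and of a stretch in which coverage climbs toward the start codon in both libraries. No cytosine of the first 61 nt had a coverage of 10 in either line. None of the 8 cytosines of the FTH1 element was listed at the files' minimum of 5 reads either, so its state was not measured.

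The FTH1 run was higher in MDA-MB-468 than in MCF10A. Of the 31 run cytosines, which share reads and are not separate observations, 28 were higher and 3 lower, with a median difference of 11.9 percentage points. The 3 lower ones were positions 173, 174 and 176, at 29.2%, 31.7% and 39.6% in MCF10A and 22.8%, 24.6% and 35.8% in MDA-MB-468, and none of these differences passed the test. By a two-sided Fisher's exact test on each cytosine kept in both lines, adjusted over all of them, 8 of the 150 shared FTH1 sites differed. All 8 were higher in MDA-MB-468 and all lay in the 5'UTR. Over all 7 genes these were the only differing sites among 840, beside 0.0202% of all shared sites that were higher and 0.0691% that were lower in MDA-MB-468.

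The differences fell at the 3' maximum of the run, at its 5' edge and, for 1 site, at position 194. The widest was at position 180, 50.5% (46.6 to 54.3) of 638 reads in MCF10A and 73.8% (66.1 to 80.3) of 145 in MDA-MB-468, with an adjusted exact p of 0.000543. Next to it, position 179 stood at 51.2% and 71.9% (adjusted exact p = 0.0108), position 182 at 46.1% and 66.9% (adjusted exact p = 0.0133) and position 183 at 46.4% and 67.8% (adjusted exact p = 0.0045). The intervals of the lines did not overlap at any of these 4 cytosines, which share reads and so are not separate observations. At the 5' end of the run, position 146 had 9.75% (7.68 to 12.3) of 636 reads in MCF10A and 30.2% (23.4 to 38.0) of 149 in MDA-MB-468, the smallest adjusted exact p of the gene at 6.68e-06. Positions 145 and 147 beside it, and position 194 just past the run, made up the 8. None of the 3 deepest MCF10A sites named above was among them, but they lie in the same run and share reads with them, so the differences are not independent of the choice of FTH1. The test compares the reads of these libraries and not the cell lines as such.

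**Figure D3:**
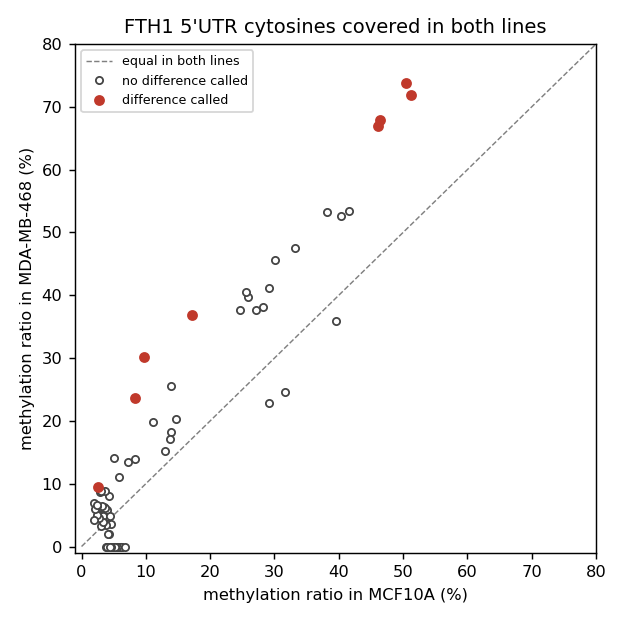
Methylation ratio in MDA-MB-468 (vertical axis, %) against MCF10A (horizontal axis, %) for the 78 FTH1 5'UTR cytosines covered in both lines, with the dashed line marking equal ratios. Filled points are the 8 cytosines with a difference called, all above the line, and the highest of them stands at 50.5% in MCF10A against 73.8% in MDA-MB-468.

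The position of the FTH1 signal was thus shared while its height was not. Of the 150 FTH1 sites kept in both lines, 31 were called in both, 1 in MCF10A alone and 7 in MDA-MB-468 alone. Over the 78 shared 5'UTR sites the ratios of the lines had a Pearson correlation of 0.95 and a Spearman correlation of 0.60, a description of neighbouring cytosines with a common sequence. Most of the run was predicted to be single-stranded. By RNAfold, 28 of the 32 called 5'UTR cytosines in MCF10A and 31 of the 38 in MDA-MB-468 were unpaired, but the setting paired only 2.49% of the bases of the canonical transcript, and the part of RNA structure in the unconverted reads was not tested. Introns of FTH1 were read too, with a pooled ratio of 2.17% over 124 sites in MCF10A and 6.20% over 86 sites in MDA-MB-468.

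FTL encodes the light subunit, which favours the growth of the iron core. It lies on the plus strand at chr19:49468566-49470136, with 1 basic transcript of 871 nt whose 5'UTR, CDS and 3'UTR measure 199, 528 and 144 nt. MCF10A had 182 kept sites and 22 calls, and MDA-MB-468 184 kept sites and 16 calls. All but 1 in each line lay in the 5'UTR, where 21 of 70 sites were called in MCF10A (30%, beside 2.24% of all 5'UTR sites) and 15 of 63 in MDA-MB-468 (23.8%, beside 1.95%). The pooled 5'UTR ratio was 4.35% (4.004 to 4.72) in MCF10A and 5.99% (5.07 to 7.05) in MDA-MB-468, but the median of the site ratios had the opposite order, 5.22% and 4.26%. In the CDS the pooled ratio was 1.26% over 98 sites and 1.11% over 110 sites, with 0 calls in either line.

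Unlike in FTH1, the iron-responsive element of FTL was read, and each of its 7 cytosines was called in both lines. Its pooled ratio was 10.9% (8.91 to 13.2) in MCF10A, at coverages of 83 to 171, and 37.8% (29.4 to 47.1) in MDA-MB-468, at coverages of 12 to 20. The bulged cytosine, on which binding of the iron regulatory proteins depends, was at position 33. It had 14 unconverted of 103 reads in MCF10A (13.6%, 8.27 to 21.5) and 6 of 16 in MDA-MB-468 (37.5%, 18.5 to 61.4). The first base of the loop, position 39, had 15 of 106 reads (14.2%, 8.77 to 22.0) and 7 of 16 (43.8%, 23.1 to 66.8). The loop base thus had the highest ratio of the element in both libraries, with an interval that covers the ratios of its other cytosines except position 55 in MCF10A.

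The remaining cytosines of the element were close to them. At position 36, in the 5' side of the stem, the ratio was 10.5% in MCF10A against 37.5% in MDA-MB-468. The flanking cytosines at positions 27, 29, 50 and 55 ranged from 7.60% to 12.6% in MCF10A and from 33.3% to 40% in MDA-MB-468. Unconverted reads were therefore spread over the whole element. All 7 cytosines were higher in MDA-MB-468, by a median of 27.2 percentage points, but none of the differences passed the test. The smallest adjusted exact p was 0.872, at position 55, on 20 reads in MDA-MB-468, and over the whole gene 0 of the 172 shared FTL sites differed.

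The signal in FTL reached past the element and faded toward the start codon. Upstream of it, MCF10A had 5 covered cytosines with a pooled ratio of 10.8% (7.15 to 15.9), 1 of them called, and MDA-MB-468 had none. From position 56 to 99 the pooled ratio was 6.76% (5.99 to 7.63) in MCF10A, with 13 of 19 sites called, and 13.3% (10.6 to 16.5) in MDA-MB-468, with 8 of 19 called. From position 100 to the end of the 5'UTR it was 2.39% (2.07 to 2.76) over 39 sites and 1.38% (0.914 to 2.08) over 37 sites, and no site was called. Within the covered cytosines of the 5'UTR, both lines had the highest FTL ratios near the 5' end. In FTH1 no cytosine of the first 61 nt had a coverage of 10, so the 5' ends of the ferritin mRNAs could not be compared.

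The FTL calls rested on few unconverted reads. In MCF10A each called site of the first run, positions 23 to 39, had 7 to 15 unconverted reads, and each of the next, positions 50 to 99, had 12 to 16, while the coverage was 64 to 106 and 136 to 222. In MDA-MB-468 the called sites had 4 to 7 unconverted reads at positions 27 to 39 and 5 to 7 at positions 50 to 78. These ranges hold for called sites, whose calling itself needs enough unconverted reads. Some uncalled sites of the FTL 5'UTR had numbers within these ranges too, such as 12 of 230 reads at position 102 and 13 of 232 at position 104 in MCF10A. At others the number was lower, for example 2 at position 15 and 0 of 101 reads at position 164 in MCF10A. Coverage also fell, from 232 at position 104 to 40 at position 154. Whether the same few fragments supplied the unconverted reads cannot be read from counts per site and was not tested.

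**Figure D4:**
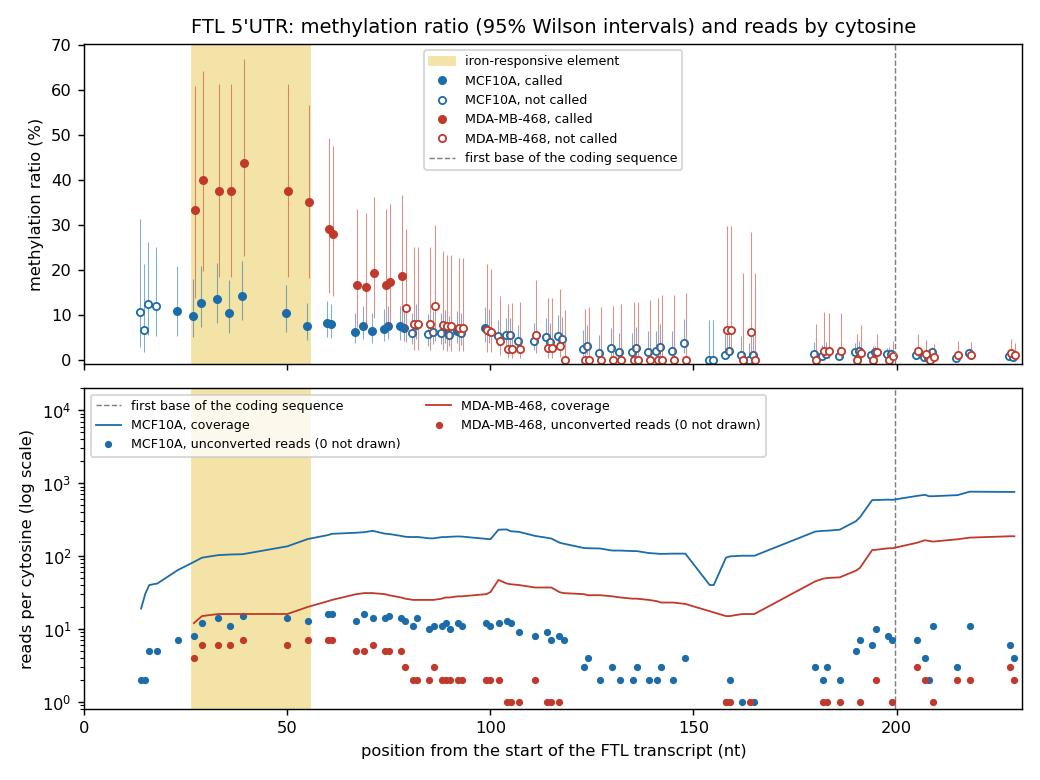
Upper panel, methylation ratio (vertical axis, %) of each covered cytosine by its distance from the start of the FTL transcript (horizontal axis, nt) in MCF10A (blue) and MDA-MB-468 (red), with 95% Wilson intervals and called sites filled. Lower panel, on a log scale, the coverage (lines) and the unconverted reads (points) at the same cytosines, with the iron-responsive element shaded, where unconverted reads number 8 to 15 in MCF10A and 4 to 7 in MDA-MB-468.

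Likeness between the lines was high in FTL as well. Of the 172 sites kept in both, 16 were called in both lines, 5 in MCF10A alone and 0 in MDA-MB-468 alone. Over the 63 shared 5'UTR sites the Pearson correlation of the ratios was 0.87 and the Spearman correlation 0.84, again across cytosines that share reads. Of these, 32 were higher and 31 lower in MDA-MB-468, with a median difference of 0.35 percentage points. RNAfold left 16 of the 21 called 5'UTR cytosines in MCF10A and 11 of the 15 in MDA-MB-468 unpaired. At this setting it paired only 2 of the 7 cytosines of the element, which is known to fold into a hairpin.

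The FTL 3'UTR held 1 isolated call, found in both lines. Position 759, printed in capitals in the FTL stretch, had 14 unconverted of 90 reads in MCF10A (15.6%) and, in MDA-MB-468, 5 of 22 (22.7%). It was the only called cytosine among the 14 MCF10A and the 11 MDA-MB-468 sites of this region, where 0.837% and 0.739% of all 3'UTR sites were called. The pooled ratio of the region was 1.05% and 0.651%. The site sat at an edge of coverage, which was 610 reads at position 751 and 75 at position 760 in MCF10A, and 124 and 16 in MDA-MB-468. No difference between the lines was called there (Fisher's exact test, adjusted p = 1).

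Both ferritin genes have processed copies elsewhere in the genome, and reads that fit a copy as well as the gene cannot be told apart in counts per site. Of 16 annotated FTL copies, FTLP3 and FTLP2 had kept sites in both lines. FTLP3 had a pooled ratio of 1.11% over 69 sites in MCF10A and 1.51% over 61 in MDA-MB-468, where 1 site was called with 4 of 19 reads. FTLP2 had 5.46% over 22 sites and 0 calls in MCF10A, but 14.8% over 21 sites and 17 calls in MDA-MB-468, each with 4 to 7 unconverted reads at coverages of 10 to 41. The values of the FTL 5'UTR and of FTLP2 are therefore uncertain as to which of the loci gave the reads. Of 25 annotated FTH1 copies, 6 had 70 kept sites in MCF10A and 1 had 10 in MDA-MB-468, and none of these sites was called. BEST1 overlaps FTH1 on the opposite strand, where no kept site was read.

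TFRC encodes the receptor that brings transferrin-bound iron into the cell. It lies on the minus strand at chr3:195776155-195808965, with a canonical transcript of 5012 nt. MCF10A had 266 kept sites at a median coverage of 15, and MDA-MB-468 had 18 at coverages of 10 to 12. Coverage reflects library depth and the amount of the transcript together, and in such bulk RNA fewer expressing cells and less RNA per cell cannot be told apart. At these coverages only high ratios could be called.

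No TFRC 3'UTR cytosine was called in either line, where 0.837% of all 3'UTR sites were called in MCF10A against 0.739% for MDA-MB-468. At such shares few calls would be met among so few sites. Its pooled ratio was 4.16% (3.27 to 5.28) over 107 sites in MCF10A, and 62 of these sites had no unconverted read. In MDA-MB-468 it was 9.89% (5.29 to 17.7) over 9 sites, each with 1 unconverted read of 10 or 11. Whether the same fragment supplied these reads cannot be read from counts per site and was not tested. Of the 4 iron-responsive elements found, at positions 3289 to 3833, no cytosine reached a coverage of 10. The search required a CAGTG loop, so an element with another loop would not have been located. Below this minimum, 2 cytosines of the element printed above were listed in MCF10A, with 0 unconverted of 16 reads together, and none in MDA-MB-468. The methylation of the TFRC elements found was therefore not measurable in these libraries.

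**Figure D5:**
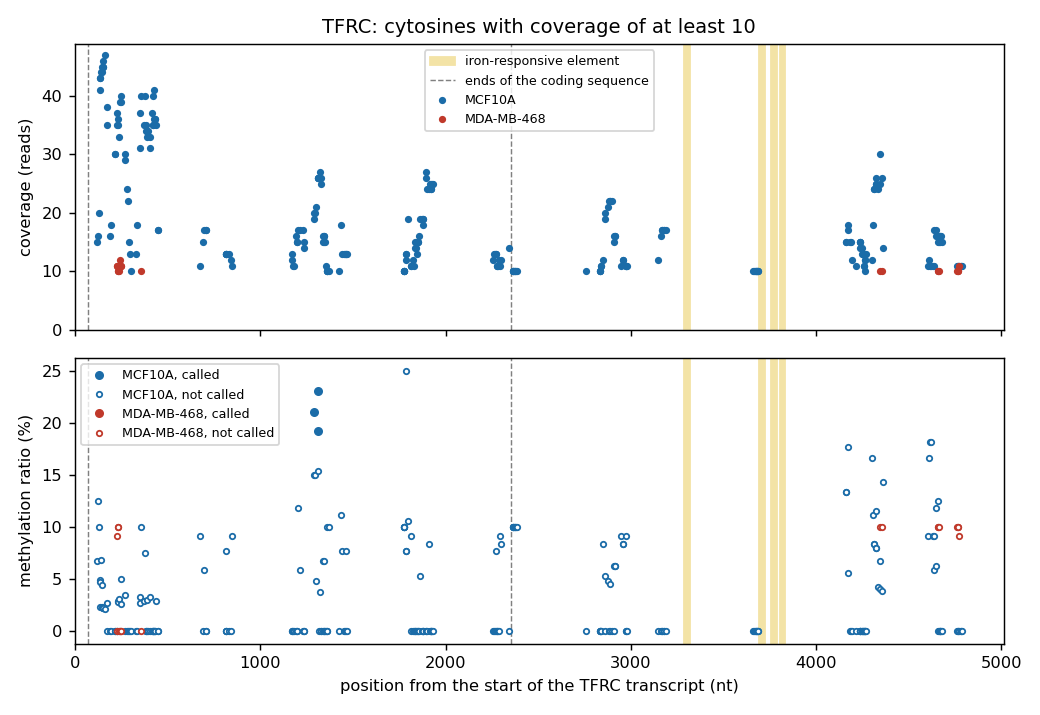
Coverage (upper panel, reads) and methylation ratio (lower panel, %) of each TFRC cytosine with a coverage of at least 10, by its distance from the start of the transcript (horizontal axis, nt), in MCF10A (blue) and MDA-MB-468 (red). Dashed lines mark the ends of the coding sequence, shaded bands the 4 iron-responsive elements found, in which no cytosine is plotted, and filled points the 3 called sites, all in MCF10A.

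The calls of TFRC lay in the CDS, in MCF10A. Of 147 CDS sites 3 were called (2.04%), beside 0.615% of all CDS sites. Positions 1310 and 1311 had 6 and 5 unconverted of 26 reads (23.1% and 19.2%), and position 1291 had 4 of 19 (21.1%). All 3 fall in the TFRC stretch, where every covered cytosine had an unconverted read and the 7 sites pooled to 16.5% (11.5 to 23.0). All 3 were also predicted to be paired. None of them was covered in MDA-MB-468.

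ACO1 encodes cytosolic aconitase, which becomes IRP1 when it loses its iron-sulfur cluster. It had 233 sites in MCF10A against 57 in MDA-MB-468 and no call. Its pooled ratio was 1.62% (1.29 to 2.02) and 1.35% (0.754 to 2.40), at or below the background. IREB2, the mRNA of IRP2, was hardly read. It had 5 sites in MCF10A, all in the 3'UTR, with 1 unconverted of 58 reads, and none in MDA-MB-468.

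PCBP1 and PCBP2 were both read more deeply than TFRC. PCBP1, a gene without introns on chromosome 2, had 376 sites in MCF10A with 4 calls (1.06%), close to the 0.96% of all kept sites, and 285 in MDA-MB-468 with none. Its 5'UTR pooled to 3.65% (3.07 to 4.34) in MCF10A and 0.998% (0.572 to 1.74) in MDA-MB-468, but over 109 sites in the former and 26 in the latter. Of the 4 calls 3 were adjacent cytosines of the 5'UTR (2.75% of its sites, beside 2.24% of all 5'UTR sites), positions 66, 67 and 68, with 6 of 20 reads (30%), 5 of 20 (25.0%) and 7 of 19 (36.8%). They are the capitals of the PCBP1 stretch, in which all 15 cytosines had unconverted reads and pooled to 17.2% (13.3 to 22.0). None of them was covered in MDA-MB-468. The remaining call lay in the CDS, at position 1313, with 4 of 19 reads (21.1%). PCBP1-AS1 is annotated on the opposite strand, where no site was kept.

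PCBP2 had 281 sites in MCF10A against 193 in MDA-MB-468, at median coverages of 84 and 34, and no call. Its pooled ratios of 0.963% (0.852 to 1.09) and 0.943% (0.746 to 1.19) were below the background and nearly equal. Some of its exons overlap 2 other genes on the same strand, so part of the reads may belong to these.

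The members on either side of the coverage limit were few beside the rest. In MCF10A 4 of the 60 member sites with 9 reads and 18 of the 97 with 10 reads had an unconverted read, and in MDA-MB-468 18 of 38 and 16 of 39.

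Other genes of iron metabolism were counted as a list of 41, which holds transporters, haem enzymes, iron-sulfur cluster factors and regulators of ferritin turnover. In MCF10A 29 of them had kept sites and 6 had calls, 56 of 6030 sites in all (0.929%), close to the 0.96% of all sites. In MDA-MB-468 20 had kept sites and 4 had calls, 51 of 2436 sites (2.09%), above the 0.84% of all sites. B2M, the light chain of MHC class I molecules and of the iron regulator HFE, supplied 51 and 37 of these calls, with pooled ratios of 4.16% and 3.15%. MCOLN1, a lysosomal channel that releases iron, had 9 calls among 23 sites in MDA-MB-468, HFE had 3 and the mitochondrial iron importer SLC25A37 had 2. Without B2M, its gene with the most calls, the list had 5 calls among 5872 sites in MCF10A (0.0851%) and 14 among 2295 in MDA-MB-468 (0.61%). No gene was taken out of the share over all kept sites, so these remainders are not comparable with it.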

How the data were processed

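RNA bisulfite reads of both lines had been trimmed with Trim Galore, aligned to hg19 with MeRanGs and called with MeRanCall of MeRanTK, per the study's methods, while the labels list Trim Galore and Bismark. The deposited tables hold counts of unconverted and converted reads per cytosine from a coverage of 5. They summed over the kept sites to 60580227 counts in MCF10A and 42429746 in MDA-MB-468. How reads with several placements were treated is not given in the sources used here.

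Cytosines read at least 10 times were kept if they lay on exons, strand included, of basic transcripts of GENCODE release 44 lifted to GRCh37, or in mitochondrial DNA. A one-sided Fisher's exact test set each site against the summed counts of its library, and a two-sided one compared the sites kept in both libraries, each with Benjamini-Hochberg adjustment over the whole table at 0.05 (Python 3.11.15, scipy 1.17.1, pandas 2.3.3). Positions count from 1 at the start of the canonical transcript. Regions join all basic transcripts of a gene, and a site in several regions was taken as 5'UTR before CDS before 3'UTR. Region shares leave out the mitochondrial chromosome. Pairing was predicted with RNAfold of ViennaRNA 2.7.2 at 70 degrees, a span of 150 nt and a maximum-expected-accuracy weight of 0.1, for the 7 genes alone. It was used as an alternative, so unlike in the study no structure filter entered the calls. The study's differential test, QNB, was not run, and Fisher's exact test per site was used in its place.

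All 7 genes are named. Named sites are the 3 deepest called sites per gene and line with a ratio of at least 0.2, the covered cytosines of the elements, and the 5 widest differences among sites read at least 20 times per line. Other iron genes are named where they hold calls, at most 5. The genes and lists were chosen with earlier results of these data known. The stretches, segments, single positions of the profiles and processed copies were picked after their values were seen. Alternatives changed the background, the test, the coverage minimum, a minimum ratio, the shared sites, the pairing filter and the region order. The tests were checked on simulated counts.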

Additional observations from a re-analysis of the deposited data

Results flagged for a closer look

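A signal lay on the strand opposite to FTL, outside the exonic comparisons. In MCF10A 15 cytosines of the minus strand with a coverage of at least 10, at chr19:49469938-49470004, had 163 unconverted of 169 reads, a pooled ratio of 96.4%, at coverages of 10 to 15. It was singled out because it lies in data that the gene profiles do not use and exceeds the 3 reads that a count of 0 allows. From the files' minimum of 5 reads, 49 cytosines of that strand were listed in MCF10A, with 398 unconverted of 421 reads (94.5%). In MDA-MB-468 11 were listed, with 63 unconverted of 80 reads (78.8%), none at a coverage of 10. No gene is annotated on that strand over FTL, and the source of the reads was not tested.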

How the results depend on the processing

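Of 101 values under another setting, 84 stayed close to the reported one and 17 moved. Requiring a ratio of at least 0.2 left 24 calls over all genes in MCF10A, 18 in the FTH1 5'UTR and 0 in the FTL 5'UTR, and 33, 23 and 9 in MDA-MB-468. A coverage minimum of 20 left 9 calls in the FTL 5'UTR of MDA-MB-468 at a pooled ratio of 4.63%, since its iron-responsive element lies under that coverage but for 1 cytosine. The median of the site ratios in place of the pooled ratio was 6.13% in MCF10A against 6.37% in MDA-MB-468 for the FTH1 5'UTR, 5.22% and 4.26% for the FTL 5'UTR, which turns the order of the lines, and 0% for the TFRC 3'UTR of MCF10A. Leaving out cytosines predicted to be paired gave 16.4% and 24.0% for the FTH1 5'UTR and 4.96% for the FTL 5'UTR of MDA-MB-468. Testing differences only among sites called in a line gave 24 higher sites in MDA-MB-468, 21 in FTH1 and 3 in FTL, and 0 lower, where 624 of 12052 tested sites were higher and 1184 lower. No paired analysis was possible because each line has 1 library and the labels carry no replicate numbers. The lack of replicates and the shared reads of neighbouring sites limit every comparison, and depth limits the FTL element in MDA-MB-468, TFRC and IREB2.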
